A study of Mus musculus with 2 samples.

Results

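The 8 genes described here, Ppara, Cpt1a, Cpt2, Acadm, Acaa2, Hadha, Pdk4 and Angptl4, were taken by symbol from the 55357 genes of the count tables, and each symbol matched 1 row. They comprise the nuclear receptor PPAR alpha and 7 genes of fat oxidation and fuel choice. Small intestinal epithelium, enriched for crypts, was compared between Adipfl/fl mice, whose adiponectin gene carries floxed alleles, and Adipfl/flpVilli-CreT mice, which carry the same floxed alleles and Cre recombinase driven by the villin promoter, which is active throughout the gut epithelium. The mice were male littermates, 8 weeks old, and pooled into 1 sample per genotype, so each genotype had 1 library and no test between the genotypes was possible. All intervals below are exact 95% intervals that cover counting error only. The libraries are called the fl/fl library and the Cre library from here on.

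PPAR alpha is a transcription factor that binds fatty acids and, paired with a retinoid X receptor, switches on genes for burning fat. Cpt1a passes long-chain fatty acids to carnitine at the outer mitochondrial membrane, and Cpt2 returns them to coenzyme A inside. Acadm, Hadha and Acaa2 encode enzymes of the beta-oxidation cycle that follows. Pdk4 holds back pyruvate dehydrogenase and so spares glucose, and Angptl4 is a secreted inhibitor of lipoprotein lipase that also limits fat digestion in the gut. In the small intestine, enterocytes absorb dietary fat while they migrate from the crypt to the villus tip, where they are shed.

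Transcripts were counted as UMIs (unique molecular identifiers, each standing for 1 captured transcript). A barcode was kept if it held over 500 genes and drew less than 25% of its UMIs from mitochondrial genes, which left 3069 of 9791 barcodes in the fl/fl library and 5555 of 11838 in the Cre library, with 25687687 and 48895126 UMIs. Levels are given as CPM, the UMIs of a gene scaled to a total of 1000000 UMIs for the class. The targeted gene, Adipoq, had 1 UMI in all of the fl/fl library and 0 in the Cre library, so it does not check the labels at this depth. The libraries shared 3 of the kept barcode sequences. Barcodes were clustered without the members and the other pathway genes, and clusters were named from markers. The stem-like class held 82 and 217 barcodes, with 12 of 12 stem markers and 11 of 12 cycling markers, and 8 of 8 fibroblast or smooth muscle markers were also at least 2-fold higher there, which was not followed further. Enterocytes fell into villus bottom-like (220 and 436 barcodes), mid-villus-like (1154 and 1756) and villus tip-like (621 and 1783) classes. They were also ranked by landmark genes, none of them in the pathway lists, and cut into 5 zones of equal size, from zone 1 at the villus bottom to zone 5 at the tip. Barcodes of zone 1 were deeper than those of zone 5, with medians of 17763 against 3883 UMIs in the fl/fl library and 18055 against 3697 in the Cre library, and their mitochondrial share was lower, at 7.28% against 18.1% and 6.64% against 18.3% of UMIs. The part of depth and mitochondrial share in the zone values was not tested beyond the alternative settings of the closing section.

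RefSeq promoter sequences (GRCm38.p6) were found for 6 members, all but Acaa2 and Angptl4. Because these genes are textbook targets of a factor that reads 2 copies of AGGTCA with 1 free base between them, the 250 bases before each start were searched on both strands for the closest match to those 12 letters. The closest was in Acadm with 3 mismatches, a distance reached by 21.3% of all 32851 promoters searched. Ppara, Cpt1a, Hadha and Pdk4 had 4 mismatches, which 74.5% of promoters matched or bettered, and Cpt2 had 5. The starts are those of the promoter sequences and differ from the ends of the gene positions given below. By those positions the matches of Ppara, Cpt1a and Hadha lie within the gene. None of the 6 came within 2 mismatches, as 3.24% of promoters did, and such elements often lie outside a window of this length. The match in Acadm and those of 2 genes with different villus profiles, Hadha and Pdk4, are shown on the strand of the gene, with the matched bases in capitals. The match in Acadm is on the opposite strand and is printed as its reverse complement.
Acadm, chr3:153944872-153944893: gTGACCTTCGGGCTccggtgac
Hadha, chr5:30155133-30155161: ctcctcggAGGTCCTTAGTCTcaccttca
Pdk4, chr6:5496414-5496442: aagggaggAGCCCAAAGTTCTttctctga

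The 8 genes lie on 8 chromosomes (positions in GRCm38, the build given by the labels as mm10). Ppara is at chr15:85734983-85802819 on the plus strand, Cpt1a at chr19:3322334-3385733 on the plus strand, Cpt2 at chr4:107903981-107923610 on the minus strand and Acadm at chr3:153922357-153944632 on the minus strand. Acaa2 is at chr18:74779197-74806208 on the plus strand, Hadha at chr5:30118304-30155162 on the minus strand, Pdk4 at chr6:5483351-5496309 on the minus strand and Angptl4 at chr17:33773750-33781830 on the minus strand. Hadha overlaps the 3′ end of Garem2, which lies on the other strand. Whether strand was used in counting is not given in the sources used here, so reads from that overlap may be shared.

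From the villus bottom to the tip, the receptor and the oxidation enzymes were lower, while Pdk4 and Angptl4 peaked in the middle of the villus. Between zone 1 and zone 5, 7 of the 8 members were at least 2-fold lower in zone 5 in both libraries, all but Pdk4. Among the 10633 genes with at least 50 UMIs in these zones, 49.1% were that much lower and 8.47% that much higher, and the median gene was at 0.434 of its zone 1 level in the fl/fl library and 0.378 in the Cre library. A lower level at the tip was thus common, and the members differed in how far and where they were lower. With a mitochondrial limit of 10%, the number was 2 of 8, and 1 member was higher at the tip. That limit left 28 and 64 villus tip-like barcodes, and the zones were cut anew. Zone 5 could then not be filled by villus tip-like barcodes alone, so the counts under the 2 limits cover different cells.

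**Figure D1:**
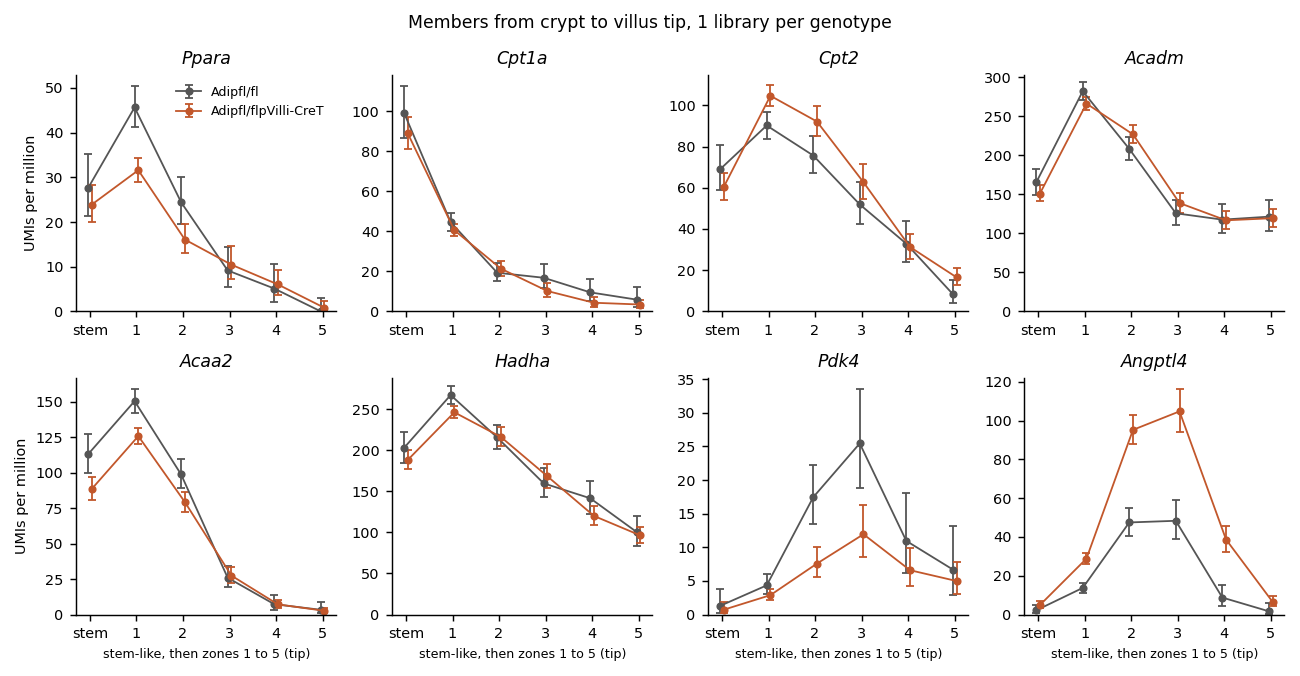
Level of each member in CPM (vertical axis, from 0) in the stem-like class and in zones 1 to 5 of the enterocytes, for the fl/fl library (grey) and the Cre library (orange), with exact 95% Poisson intervals as bars. Ppara, Cpt2, Acadm, Acaa2 and Hadha are highest in zone 1, Cpt1a in the stem-like class, and Pdk4 and Angptl4 in zone 3. Zones 2 and 3 do not differ beyond counting error for Angptl4 in either library, nor for Pdk4 in the fl/fl library.

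Ppara itself was at 27.6 and 23.9 CPM in the stem-like class of the fl/fl and the Cre library, 45.7 and 31.6 in zone 1, 24.4 and 16.1 in zone 2, 9.16 and 10.4 in zone 3, and 5.11 and 6.02 in zone 4. In zone 5 it had 0 UMIs in the fl/fl library and 3 UMIs in the Cre library, 0.787 CPM. With the count of 0 set to a floor of 3 UMIs (2.51 CPM), zone 5 was at least 18.2-fold lower than zone 1 in the fl/fl library, where the exact 95% interval begins at 14.7, and 40.2-fold lower (interval, 13.7 to 195) in the Cre library. Zone 5 thus held almost no transcript of the receptor in either library, but with a mitochondrial limit of 10% its tip over bottom ratio was 0.404 and 0.472. The zones were cut anew under that limit with few villus tip-like barcodes, so those ratios cover different cells.

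The carnitine shuttle genes differed from each other in the crypt. Cpt1a, the rate-limiting step of mitochondrial fat entry, was at 99.2 and 88.9 CPM in the stem-like class of the fl/fl and the Cre library and at 44.6 and 40.6 in zone 1, so the stem-like class was 2.23-fold (interval, 1.88 to 2.63) and 2.19-fold (1.95 to 2.47) higher. It was at 19.3 and 21.3 in zone 2, 16.8 and 10.1 in zone 3, 9.49 and 4.30 in zone 4, and 5.86 and 3.41 in zone 5. Among the stem-like class and the 5 zones, the stem-like class was the highest point for this gene, and for no other member. A cycling-like class of 4 and 65 barcodes was left out of these comparisons. Cpt1a was at 72.2 there on 5 UMIs (interval, 23.5 to 169) and at 118 on 58 UMIs (90.0 to 153). Cpt2 was at 69.0 and 60.5 in the stem-like class, 90.2 and 104.6 in zone 1, 75.7 and 92.1 in zone 2, 51.9 and 62.7 in zone 3, 32.8 and 31.2 in zone 4, and 8.37 and 16.5 in zone 5. In zone 2 it was at 0.839 and 0.880 of its zone 1 level, whereas Cpt1a was at 0.433 (interval, 0.332 to 0.559) and 0.526 (0.435 to 0.633).

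Under the 25% mitochondrial limit, Acaa2 had a steep profile and Acadm and Hadha a shallow one. Acaa2, the thiolase of the last step, was at 150.5 and 125.8 CPM in zone 1 of the fl/fl and the Cre library, 98.7 and 79.3 in zone 2, 25.9 and 27.5 in zone 3, 7.30 and 7.17 in zone 4, and 3.35 and 2.62 in zone 5. Its zone 1 was 45.0-fold (interval, 17.5 to 165) and 47.95-fold (26.0 to 100.1) above zone 5, on 4 and 10 UMIs in zone 5. With a mitochondrial limit of 10% the tip over bottom ratio of Acaa2 was 0.869 and 0.580. That of Acadm was 0.962 and 0.924 and that of Hadha 0.958 and 0.760. These ratios come from zones cut anew with few villus tip-like barcodes, so the size of the contrast is stated for the 25% limit only. Acadm, which begins the cycle for medium-chain fatty acids, was at 282 and 266 in zone 1, 208 and 227 in zone 2, 126 and 139 in zone 3, 118 and 117 in zone 4, and 121 and 119 in zone 5. From zone 3 onward it lay between 117 and 139, and zone 1 was only 2.33-fold (1.97 to 2.77) and 2.23-fold (2.02 to 2.46) above zone 5. Hadha, a subunit of the trifunctional protein for long chains, was at 267 and 246 in zone 1, 216 and 216 in zone 2, 160 and 168 in zone 3, 142 and 120.1 in zone 4, and 100.4 and 96.3 in zone 5. In zone 5 both shallow genes were close to the median of all genes in their ratio to zone 1, at 0.430 and 0.448 for Acadm and 0.376 and 0.391 for Hadha.

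Pdk4, the brake on glucose oxidation, was almost absent from the crypt, with 3 and 4 UMIs in the stem-like class of the fl/fl and the Cre library. It was at 4.34 and 2.88 CPM in zone 1, 17.4 and 7.58 in zone 2, 25.4 and 11.9 in zone 3, 10.9 and 6.59 in zone 4, and 6.69 and 4.98 in zone 5. Zone 3 was 5.87-fold (interval, 3.75 to 9.27) and 4.14-fold (2.65 to 6.43) above zone 1. Angptl4 followed the same outline at 13.7 and 28.8 in zone 1, 47.5 and 95.2 in zone 2, 48.3 and 104.8 in zone 3, 8.76 and 38.7 in zone 4, and 1.67 and 6.56 in zone 5. Its zone 3 was 3.52-fold (2.65 to 4.66) and 3.63-fold (3.16 to 4.18) above zone 1. Its zone 5 was at 0.122 and 0.227 of zone 1, and with a mitochondrial limit of 10% the tip over bottom ratio was 6.74 and 10.4. Zone 5 was cut anew under that limit and could not be filled by villus tip-like barcodes alone, so the 2 results cover different cells. The low Angptl4 level in zone 5 is thus stated for the 25% limit only. Pdk4 and Angptl4 were the only members whose highest zone was not zone 1, and zone 3 had the highest value in both libraries for both genes. Zone 2 was close to it for Angptl4, at 0.982 (0.761 to 1.27) and 0.909 (0.796 to 1.04) of the zone 3 level. For Pdk4 it was at 0.685 (0.467 to 1.01) and 0.635 (0.409 to 0.989). Only Pdk4 in the Cre library thus differed between these zones beyond counting error.

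Between the libraries, Angptl4 was higher and Pdk4 lower in the Cre library in the middle of the villus, and the enzymes of the cycle differed little. Ppara was lower at the villus bottom and, by less, in the mid-villus-like class. In all enterocytes together, Angptl4 was at 24.2 CPM (400 UMIs) in the fl/fl library and 47.6 (1607 UMIs) in the Cre library, 1.97-fold higher (interval, 1.76 to 2.20). Pdk4 was at 10.5 (174 UMIs) and 5.30 (179 UMIs), a ratio of 0.505 (0.407 to 0.625). These 2 were the members past 1.5-fold in all enterocytes, where 2.92% of 11439 genes with at least 50 UMIs were that much higher and 2.86% that much lower.

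**Figure D2:**
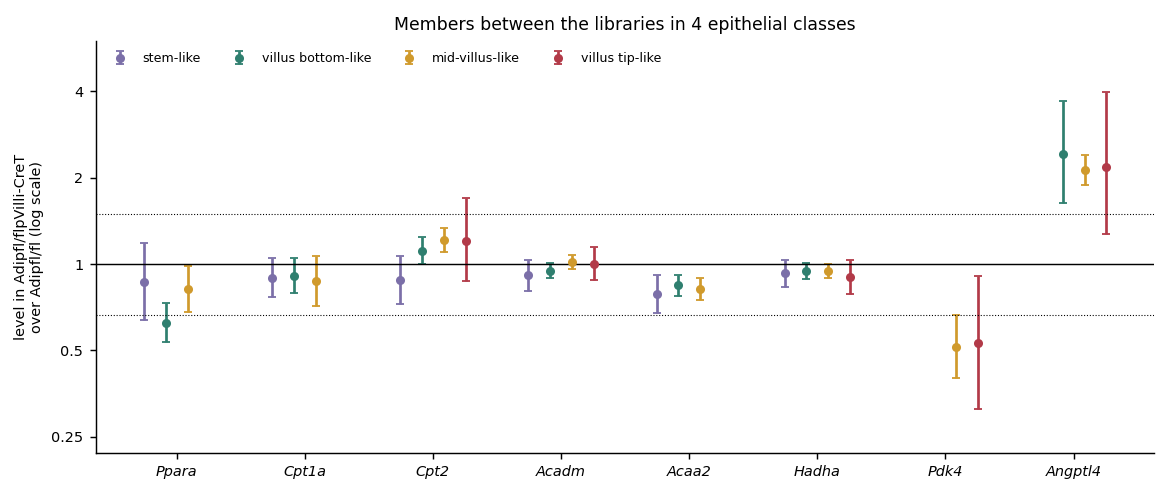
Level in the Cre library over that in the fl/fl library (vertical axis, log scale) for each member in the stem-like, villus bottom-like, mid-villus-like and villus tip-like classes, where the gene had at least 50 UMIs; bars are exact 95% intervals and dotted lines mark 1.5-fold. Angptl4 lies above the upper line in the 3 enterocyte classes, and Pdk4 lies below the lower line in the 2 classes where it could be placed.

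Under the 25% mitochondrial limit, the share of enterocytes in each zone differed between the libraries. Zone 5 held 13.8% of those in the fl/fl library and 23.1% of those in the Cre library. The ratios within zones and classes are thus the better guide. That limit removed 4670 of 7739 barcodes with more than 500 genes in the fl/fl library and 4263 of 9818 in the Cre library. The mitochondrial share was also taken from 13 protein-coding genes. Villus bottom-like, mid-villus-like and villus tip-like barcodes then numbered 220, 407 and 1232 in the fl/fl library. In the Cre library they numbered 445, 803 and 2639. The difference in shares is stated for the 25% limit only, and its cause was not tested. In zone 1 the Angptl4 level in the Cre library was 2.10-fold (interval, 1.71 to 2.60) that in the fl/fl library, in zone 2 2.01-fold (1.69 to 2.38), in zone 3 2.17-fold (1.72 to 2.75) and in zone 4 4.42-fold (2.45 to 8.76), the last on 12 and 135 UMIs. In the 4 clusters of the mid-villus-like class the ratio was between 2.16 and 2.73. The direction was thus the same in every zone and cluster with enough UMIs to place it.

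A few Angptl4 UMIs were also found in T cell-like barcodes, and the part of RNA from other cells in those UMIs was not tested. The T cell-like class held 364 and 442 barcodes with medians of 4585 and 4036 UMIs. Angptl4 was there at 4.002 CPM (7 UMIs) in the fl/fl library and 14.99 (30 UMIs) in the Cre library. That was 3.75-fold higher (interval, 1.61 to 10.1), with 20% of the 30 UMIs in 1 barcode. The villus bottom-like class was at 5.56 and 13.4 and the villus tip-like class at 6.06 and 13.2, close to the T cell-like level in each library. After thinning to 2000 UMIs, the share of T cell-like barcodes with an Angptl4 UMI was 0.585% and 2.54%, against 0.457% and 3.23% in the villus bottom-like class and 1.02% and 2.39% in the villus tip-like class. The ratio between the libraries was 2.42 (1.63 to 3.71) in the bottom and 2.18 (1.28 to 3.97) in the tip class, at levels that did not stand above those of T cell-like barcodes, and the part of RNA from other cells in them was not tested. Mid-villus-like barcodes stood above the T cell-like level, at 41.6 and 88.3 CPM and with 10.2% (8.49% to 12.2%) and 17.2% (15.4% to 19.1%) of thinned barcodes positive. Before thinning these shares were 21.5% and 40.3%, at medians of 4401 and 5411 UMIs, and 79 and 57 shallower barcodes were left out of the thinned shares. In the mid-villus-like class the ratio was 2.12 (1.89 to 2.40), beside 2.97% of 9847 genes that were at least 1.5-fold higher.

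Pdk4 was nearly absent from T cell-like barcodes, with 0 UMIs and 1 UMI there. It was at 15.8 CPM (135 UMIs) in the mid-villus-like class of the fl/fl library and 8.17 (126 UMIs) in the Cre library, a ratio of 0.515 (interval, 0.401 to 0.662), where 3.03% of genes were at least 1.5-fold lower. In the villus tip-like class it was at 9.84 (26 UMIs) and 5.204 (37 UMIs), a ratio of 0.529 (0.312 to 0.909), where 3.51% were that much lower and 5.95% that much higher. By zone the ratio was 0.434 (0.294 to 0.639) in zone 2 and 0.469 (0.302 to 0.726) in zone 3, while the intervals of zones 1, 4 and 5 held 1. The clusters of the mid-villus-like class did not behave alike, with ratios of 0.427, 0.696 and 0.336 in clusters 0, 5 and 9 and 1.15 (0.639 to 2.15) in cluster 7, the deepest of them. With a mitochondrial limit of 10% the ratio in the mid-villus-like class was 0.886, past the 1.5-fold line no longer. That limit left 194 and 438 barcodes in the class, clustered anew, so the ratio covers a different set of barcodes. The share of thinned mid-villus-like barcodes with a Pdk4 UMI was 3.81% (2.75% to 5.14%) in the fl/fl library and 1.53% (1.00% to 2.23%) in the Cre library, and before thinning 9.27% and 6.26%.

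Ppara was at 53.7 CPM (290 UMIs) in the villus bottom-like class of the fl/fl library and 33.6 (377 UMIs) in the Cre library, a ratio of 0.625 (interval, 0.535 to 0.731). Of 9787 genes in that class, 2.34% were at least 1.5-fold lower and 2.67% at least 1.5-fold higher. The Ppara ratio was 0.692 (0.605 to 0.792) in zone 1, 0.659 (0.492 to 0.882) in zone 2 and 0.816 (0.679 to 0.982) in the mid-villus-like class. In the stem-like class it was 0.866 (0.638 to 1.19), and from zone 3 on the intervals held 1. The lower level in the Cre library was thus seen at the villus bottom, where the receptor's transcript was highest, and also in zone 2 and the mid-villus-like class. Zone 3 had 18 and 35 UMIs and the later zones fewer, so the ratios there are poorly placed.

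Among the enzymes, Acaa2 was lower in the Cre library in the stem-like (ratio 0.784, interval 0.673 to 0.914), villus bottom-like (0.842, 0.774 to 0.917) and mid-villus-like (0.818, 0.747 to 0.895) classes, and its interval held 1 in the villus tip-like class, on 15 and 31 UMIs. Cpt2 leaned the other way, with 1.11 (1.00 to 1.24) in the villus bottom-like class, 1.21 (1.10 to 1.33) in the mid-villus-like class and 0.877 (0.724 to 1.06) in the stem-like class. In zone 5 the Cpt2 ratio was 1.98 (1.01 to 4.32), on 10 and 63 UMIs. Neither gene passed 1.5-fold in these classes, although Acaa2 did within clusters 0 and 5 of the mid-villus-like class, at 0.353 (0.220 to 0.552) and 0.653 (0.498 to 0.858). Acadm lay between 0.914 and 1.02 and Hadha between 0.902 and 0.947 over the 4 classes, and every one of these 8 intervals held 1. In zone 1 both were slightly lower in the Cre library, at 0.944 (0.897 to 0.993) and 0.921 (0.875 to 0.971). For Cpt1a, the ratio was between 0.873 and 0.912 in the stem-like, villus bottom-like and mid-villus-like classes, with intervals that held 1, and 0.502 (0.271 to 0.943) in the villus tip-like class on 20 and 27 UMIs. That is fewer than the 50 UMIs required for a count. The Cpt1a ratio was 0.408 (0.214 to 0.748) in cluster 0 of the mid-villus-like class, 0.604 (0.363 to 1.01) in zone 3, and 0.867 (0.776 to 0.970) in all enterocytes. In the stem-like class none of the 6 members with 50 UMIs or more passed 1.5-fold, where 4.79% of 9354 genes were that much higher and 2.1% that much lower.

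Across the 10 marker-named classes with at least 20 barcodes in each library, the villus bottom-like class had the highest level of 5 members in both libraries, Ppara, Cpt2, Acadm, Acaa2 and Hadha. In each case the next class was lower beyond counting error. Cpt1a was highest in the stem-like and tuft-like classes, at 99.2 and 88.9 CPM and at 100.3 and 81.4, and those 2 classes did not differ beyond counting error in either library. Tuft cells are chemosensory cells of the epithelium, and their Cpt1a level was well above the 20.1 and 19.3 of the goblet-like class. Angptl4 was highest in the mid-villus-like class of both libraries. Pdk4 had its highest value in the enteroendocrine-like class, at 22.4 and 8.52, but on 9 and 4 UMIs, which did not differ from the mid-villus-like class beyond counting error.

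**Figure D3:**
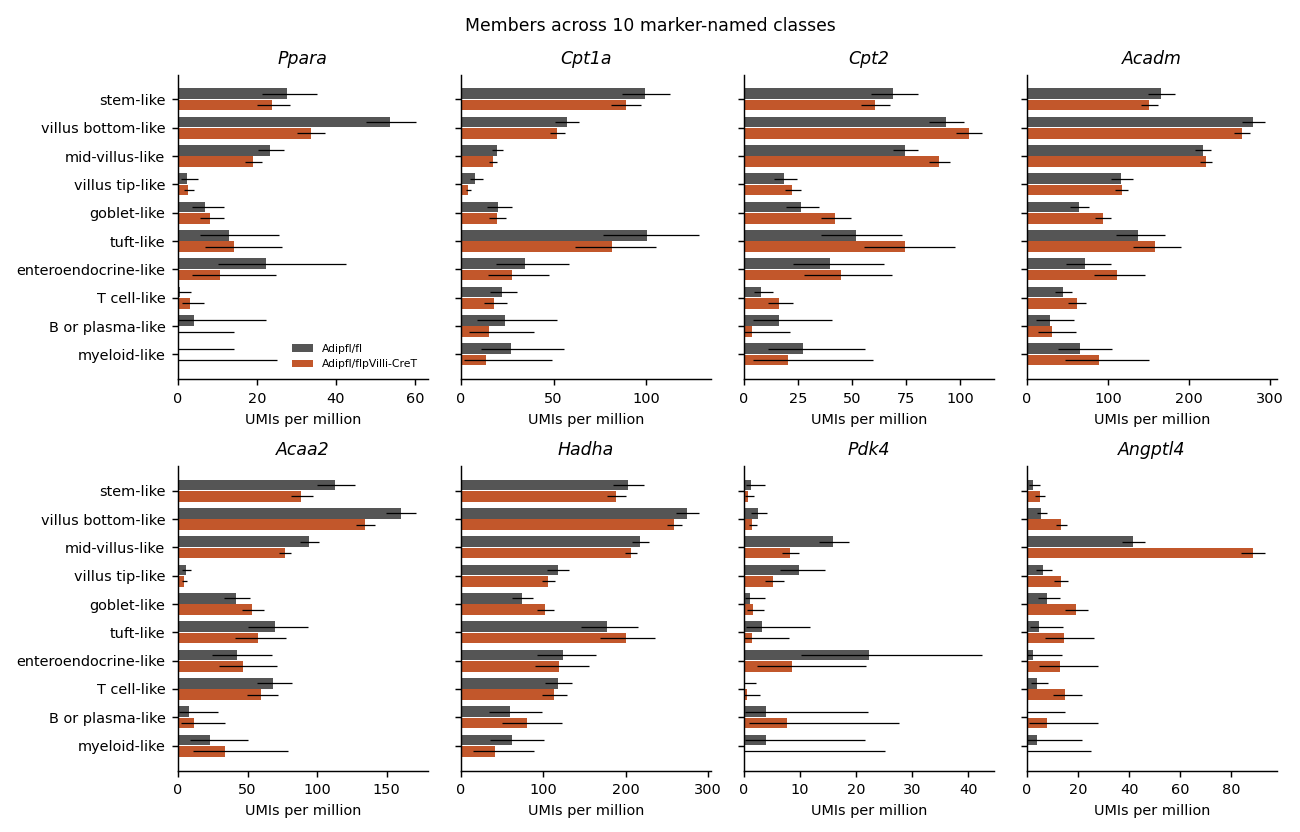
Level of each member in CPM (horizontal axis, from 0) in 10 classes of barcodes, for the fl/fl library (grey) and the Cre library (orange), with exact 95% Poisson intervals. Acaa2 and Hadha are well above 0 in the T cell-like class, where Ppara is at 0.572 and 2.999 CPM.

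UMIs of Hadha and Acaa2 were also found in T cell-like barcodes, and the part of RNA from other cells in them was not tested. In that class Hadha was at 117 and 113 CPM, next to 118 and 106 in the villus tip-like class, and Acaa2 was at 68.6 and 60.0, above the 5.68 and 4.36 of the villus tip-like class. After thinning to 2000 UMIs, 13.7% and 12.4% of T cell-like barcodes had an Acaa2 UMI, against 0.683% and 0.955% of villus tip-like barcodes. Ppara had 1 and 6 UMIs in T cell-like barcodes, and none in the myeloid-like class of either library. The goblet-like class had 7 of 7 markers of goblet cells, the mucus-secreting lineage, but also 7 of 9 Paneth cell markers. The part of each cell type in its values was not tested. In that class Cpt2 was at 26.4 and 42.1, Acadm at 63.9 and 93.4, and Hadha at 73.9 and 101.8. The ratios between the libraries were 1.59 (1.15 to 2.24), 1.46 (1.19 to 1.81) and 1.38 (1.13 to 1.69), that of Angptl4 was 2.40 (1.36 to 4.51) on 15 and 70 UMIs, and the median ratio of all genes in that class was 0.11 on the log2 scale.

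Over 25 sums of a class in 1 library, each of at least 20 barcodes, the members' log2 levels were most alike for Ppara and Cpt2 (Pearson r = 0.91) and for Cpt2 and Acadm (r = 0.88). Cpt1a had r = 0.58 with Ppara, and Pdk4 r = 0.21. The points share libraries and depth, so these values are descriptions. Among 7567 genes that reached 50 CPM, the genes most like Ppara were Pde3a (r = 0.97), Nr1h4 (r = 0.95) and Cyp4f40 (r = 0.95). Mcee, Hacd1 and Stt3b were most like Cpt1a (r = 0.88 to 0.90), and Ccl25, Thra and Idh1 most like Cpt2 (r = 0.95 to 0.96). Acadm was most like Mdh2, Smlr1 and Hadh (r = 0.94 to 0.96), Acaa2 most like Ndufa10 and Uqcr10, among others (r = 0.91 to 0.93), and Hadha most like Ndufv1, Cisd3 and Gpr89 (r = 0.92 to 0.93). Pdk4 was most like Pcnx, Cyp4b1 and Bmp1, at r = 0.73 to 0.75. It had few UMIs in many of the sums, such as 3 and 4 in the stem-like class, and the part of counting error in its r was not tested. Angptl4 was most like the transporter genes Slc13a2 (r = 0.91), Slc22a4 (r = 0.86) and Slc5a11 (r = 0.86).

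The rest of the pathway was described by 12 lists of 108 other genes, of which 90 had at least 50 UMIs in enterocytes. In the Cre library 4 of the 90 were at least 1.5-fold higher and 1 was that much lower. Among all 11439 genes with that many UMIs the shares were 2.92% and 2.86%. The count of lower pathway genes was larger after thinning and with equal weight per barcode, as given in the closing section. The 12 lists are described by counts and medians, and none was tested.

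**Figure D4:**
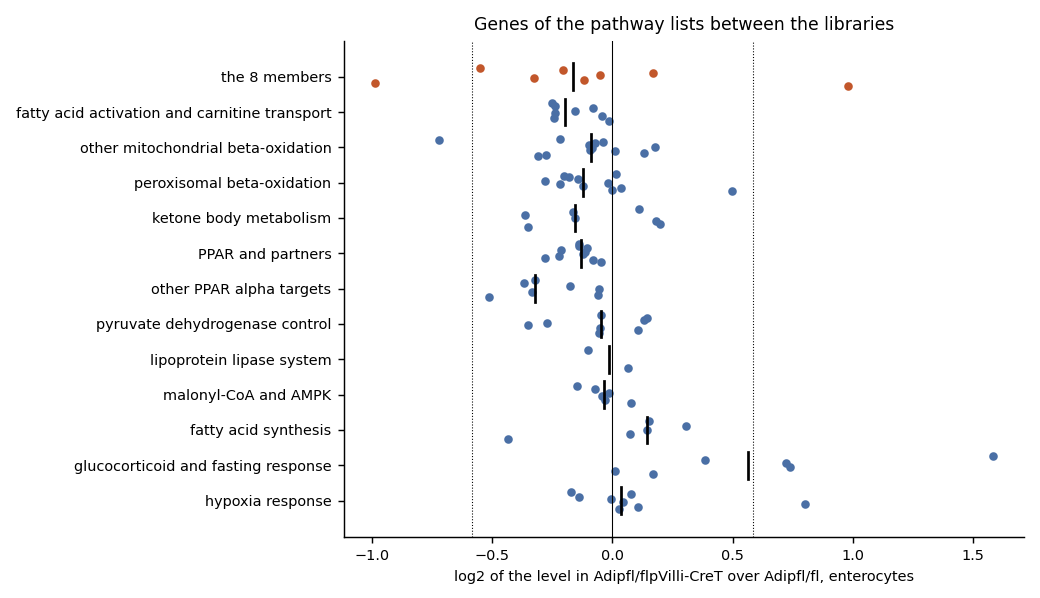
Log2 of the enterocyte level in the Cre library over that in the fl/fl library (horizontal axis) for genes of each pathway list with at least 50 UMIs; each point is a gene, the black bar the list's median and the dotted lines 1.5-fold. The glucocorticoid and fasting list has a median of 0.56, and the other lists lie between -0.32 and 0.15.

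In all enterocytes together, the fatty acid oxidation lists had medians slightly below that of all genes, which was -0.02 on the log2 scale. Of 8 genes of fatty acid activation and carnitine transport, none was past 1.5-fold, 0 had a ratio above 1, and the median was -0.20. Its most abundant genes were the acyl-CoA synthetase Acsl5, at 856 and 809 CPM in the fl/fl and the Cre library, and the fatty acid transporter Slc27a4, at 572 and 565. In the villus bottom-like, mid-villus-like and villus tip-like classes 1, 2 and 1 of these 8 genes had a ratio above 1. Acsl3 was past 1.5-fold lower in the latter 2 classes, and Slc27a2 in the last. Of 12 other genes of mitochondrial beta-oxidation, 1 was past 1.5-fold and the median was -0.09. Within classes the median of that list was -0.10 in the villus bottom-like, 0.03 in the mid-villus-like and 0.21 in the villus tip-like class, so the direction of the pooled median was not shared by the latter 2. That gene was Acadl, the long-chain acyl-CoA dehydrogenase, at 72.0 (1193 UMIs) and 43.7 (1475 UMIs), a ratio of 0.606 (interval, 0.561 to 0.655). It was lower in each class, with 0.681 (0.604 to 0.768) in the villus bottom-like, 0.595 (0.532 to 0.664) in the mid-villus-like and 0.519 (0.396 to 0.681) in the villus tip-like class. The most abundant of that list, Hadh and Etfa, were at 797 and 745 and at 233 and 256.

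Peroxisomal beta-oxidation had 11 genes with a median of -0.12 and none past 1.5-fold in all enterocytes together, among them the transporter Abcd3 at 306 and 302 CPM. In the villus bottom-like, mid-villus-like and villus tip-like classes the median was -0.08, -0.05 and 0.03, and in the last Acaa1b was past 1.5-fold lower. None of the 10 receptors and partners of PPAR alpha passed 1.5-fold in all enterocytes together and none had a ratio above 1 there, with a median of -0.13. The most abundant were the corepressor Ncor1, at 497 and 426, and Esrra, at 219 and 212. In each of the same classes, however, 2 genes of that list had a ratio above 1. Ppargc1a was past 1.5-fold lower in the villus tip-like class. Of the other PPAR alpha targets 7 of 14 could be placed in all enterocytes together. None was past 1.5-fold there, and the median was -0.32, the lowest of the lists in that pool. In the same classes as above the median was -0.15, -0.17 and -0.15, and in the villus tip-like class Retsat was past 1.5-fold lower. For all enterocytes together, 2 genes are given. Fabp1, the fatty acid binding protein of absorptive cells, was at 5070 and 4024, a ratio of 0.794 (interval, 0.787 to 0.801), and Creb3l3 was at 606 and 581. Cyp4a10, Cyp4a14, Cyp4a31 and Fgf21, targets best known from liver, had 0 UMIs in the enterocytes of both libraries.

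Genes of ketone body metabolism were led by Acat1 at 115 and 103 CPM and Bdh1 at 70.7 and 63.1, and none of the 7 that could be placed passed 1.5-fold (median -0.16). Within the villus bottom-like, mid-villus-like and villus tip-like classes the median was -0.03, 0.03 and 0.02, and in the last Bdh1 and Oxct1 were past 1.5-fold higher and Bdh2 lower. The 8 genes were grouped under a name that includes ketogenesis, but none of them encodes an enzyme of ketone body synthesis.

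In pyruvate dehydrogenase control, the other kinases and the enzyme's subunits did not share the low Pdk4 level of the Cre library. None of 8 genes passed 1.5-fold and the median was -0.05, with Pdk2 at 49.0 and 54.2 CPM and Pdk1 at 20.9 and 20.3. The most abundant were Pdha1, at 133 and 129, and Pdhb, at 64.5 and 69.4. In the lipoprotein lipase system, Lpl itself had 0 UMIs and 1 UMI in enterocytes, and only Angptl8, at 4.47 and 4.68, and Lmf1, at 4.29 and 3.998, could be placed. Within the villus bottom-like class Angptl8 was past 1.5-fold higher in the Cre library. Malonyl-CoA and AMPK genes (6 placed, median -0.04) were led by Mlycd, at 35.3 and 33.6, and Prkag1, at 29.9 and 31.6. Fatty acid synthesis genes (5 placed, median 0.15) were led by Elovl6, at 99.8 and 104.9, and Srebf1, at 38.6 and 28.5. Neither list had a gene past 1.5-fold in all enterocytes together. By class, Acly was that much higher in the villus bottom-like class and Srebf1 that much lower in the villus tip-like class.

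Genes that respond to glucocorticoids and fasting, signals to which Pdk4 and Angptl4 are also known to respond, were the list with the highest median. In the villus bottom-like, mid-villus-like and villus tip-like classes the median was 0.60, 0.54 and 0.28 on the log2 scale. A ratio above 1 was found there for 4 of 6, 6 of 6 and 5 of 5 placed genes. In all enterocytes together the median was 0.56, and all 6 that could be placed had a ratio above 1. Fkbp5, a classic glucocorticoid target, was at 4.23 CPM (70 UMIs) in the fl/fl library and 12.7 (428 UMIs) in the Cre library, 2.999-fold higher (interval, 2.32 to 3.92). Per1, a clock gene, was at 9.06 and 14.9, 1.65-fold higher (1.37 to 1.99). Sgk1, a kinase of ion transport, was at 169 and 283, 1.67-fold higher (1.60 to 1.74). Tsc22d3 was the second most abundant of the list, at 62.8 and 81.9. Of 8 hypoxia response genes, which were included because Angptl4 is also a hypoxia target, only Ankrd37 passed 1.5-fold, at 8.70 and 15.2 (ratio 1.74, interval 1.45 to 2.11). Ldha and Pgk1, the most abundant, were at 1126 and 1122 and at 188 and 194. In all enterocytes together the 2 members went in opposite directions, with Angptl4 at a ratio of 1.97 and Pdk4 at 0.505. Any link of Pdk4 or Angptl4 to these genes was not tested.

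Along the villus, the other genes of mitochondrial beta-oxidation resembled the members. At least 2-fold lower in zone 5 than in zone 1 in both libraries were 11 of 12, against 49.1% of all genes, and none was that much higher. In the list of receptors and partners 4 of 10 were that much lower, among them the coactivator Ppargc1a, at 165 and 160.3 CPM in zone 1 and 6.69 and 6.03 in zone 5. The peroxisomal list had 8 of 11 lower, and 1 higher. Activation and transport was mixed, with 5 of 8 lower and 3 higher, the last including Slc27a4, at 370 and 351 in zone 1 and 1012 and 906 in zone 5.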

How the data were processed

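Single cells of small intestinal epithelium were captured with the 10x Genomics 3′ kit, 1 library per genotype. The authors converted reads with bcl2fastq 5.0.1 and counted with Cell Ranger (header version 7.1.0, build mm10), and the deposited values are raw UMI counts per gene and barcode, unnormalized and not yet filtered for quality. The 8 members, the gene lists, filters and alternatives were chosen with earlier results of these data known.

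Barcodes with more than 500 genes and under 25% UMIs from mt- genes were kept and clustered in Seurat 5.3.0 (R 4.3.3; LogNormalize, scale factor 10000, 2000 variable genes leaving out the 12 pathway genes among them, 20 components, Louvain resolution 0.8). A cluster took the name of the class with the most markers at least 2-fold higher there with at least 10 UMIs, given at least 3 such markers, no tie and no clash with its 10 leading genes, and otherwise stayed unnamed. Names were rebuilt and are not the authors' annotation. The study states more cells after its own filtering than the 3069 and 5555 kept here. It also names limits of 500 genes and 25% for mitochondrial genes, and the cause of the difference was not tested. Zones rank enterocytes by the mean scaled log level of 8 tip minus 10 bottom landmarks.

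UMIs were summed per class and library and divided by all UMIs of the class (CPM, scaled to 1000000). Sums have exact Poisson, ratios exact conditional and shares exact Clopper-Pearson 95% intervals, which cover counting error only; there is no replicate, so no p-value was computed. A count of 0 was set to 3 UMIs in a ratio, taken per library. Counts of genes required 50 UMIs in both libraries together. Likeness is Pearson's r of log2(CPM + 10). Members, list genes past 1.5-fold in enterocytes and the 2 most abundant of each list are named, with 3 genes most like each member; Pdk2, Pdk1, Oxct1, Bdh2, Lpl, Ppargc1a, the 4 targets at 0 and Garem2 were named after their values were seen. Scrublet (scanpy 1.11.5) called 3 doublets per library, too few to have worked, so none were removed in the values reported. The computation of ratios and intervals was run on simulated Poisson counts with known ratios. Such counts hold no spread between barcodes or mice, so they cannot show that the intervals cover it. Python 3.11.15, numpy 2.4.6, scipy 1.17.1 and matplotlib 3.10.9 were used. Results for some genes are not reported here.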

Additional observations from a re-analysis of the deposited data

Results flagged for a closer look

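Barcodes with more than 500 genes that the mitochondrial limit removed, 4670 in the fl/fl library and 4263 in the Cre library, entered no comparison and held 4857 and 4285 UMIs of the 8 members. There, Angptl4 was at 46.9 CPM (interval, 43.3 to 50.7) in the fl/fl library and 70.02 (65.3 to 75.0) in the Cre library, and Pdk4 at 17.05 (14.9 to 19.4) and 7.93 (6.41 to 9.70). Ppara was at 10.5 (8.86 to 12.4) and 7.42 (5.95 to 9.15), and Acaa2 at 25.6 and 15.9. These barcodes come from the same 2 libraries and are no replicate of them. Mitochondrial UMIs were 35.6% and 32.8% of their total, and the cells they come from were not named.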

How the results depend on the processing

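With 1 library per genotype no replicate could be left out. No paired analysis was possible because each genotype has 1 library. Of 176 recomputed counts 156 stayed within 1.5 times the reported value, and of 680 recomputed single ratios 618 stayed within the reported interval. In the mid-villus-like class the Angptl4 ratio was between 1.78 and 2.49 and the Pdk4 ratio between 0.383 and 0.886, and the Ppara ratio in the villus bottom-like class was between 0.466 and 0.630.

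A mitochondrial limit of 10%, which left 28 and 64 villus tip-like barcodes, gave 0 members lower in the mid-villus-like class, 0 higher and 0 lower in the villus tip-like class, and 2 members lower and 1 higher at the tip of the zones, against 7 and 0. Under that limit the Angptl4 ratio in the villus tip-like class was 0.517, its tip over bottom ratios were 6.74 and 10.4, and that of Cpt2 in the fl/fl library was 1.04. Counts of members lower in the villus tip-like class were 2 with the mitochondrial share from 13 protein-coding genes, 3 with the 8% highest doublet scores removed and 0 after thinning to 2000 UMIs. Thinning also gave 1 member lower in the stem-like class and 0 higher in the villus bottom-like class, and 7 pathway genes lower, against 6 with equal weight per barcode and 1 as reported. A minimum of 20 UMIs gave 1 higher in the stem-like, 2 lower in the villus bottom-like and 2 lower in the villus tip-like class, and a minimum of 200 UMIs gave 0 higher in the villus bottom-like and 0 higher and 0 lower in the villus tip-like class. With 10 zones, and with the villus tip-like over the villus bottom-like class, 1 member was higher at the tip, and in the latter Angptl4 in the fl/fl library was at 1.09. Under the 10% limit the zones were cut anew, and their tip could not be filled by villus tip-like barcodes alone. The zone counts and tip over bottom ratios of that limit thus cover different cells from the reported ones. The cause of the moves listed here was not tested, beyond these different cells and the fewer barcodes or UMIs that some settings leave. No stem-like class could be named under the 13-gene mitochondrial share.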

Other observations

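A cluster of 69 barcodes in the fl/fl library and 156 in the Cre library, led by Fgf15, Dnm1 and Lypd8l, had too few markers to be named and entered no enterocyte value. In it, Acaa2 was at 117 and 66.4 CPM, a ratio of 0.567 (interval, 0.364 to 0.884), and Angptl4 at 27.3 and 46.8, a ratio of 1.72 (0.820 to 3.93). Hadha was at 232 and 204, Cpt2 at 95.4 and 96.6 and Ppara at 32.7 and 27.2, each with an interval of the ratio that held 1.

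A cycling cluster of 107 and 112 barcodes that had T cell and cycling markers in equal number stayed unnamed. Hadha was at 120.1 and 104 there and Acaa2 at 55.9 and 63.6, while Ppara had 3 UMIs and 1 UMI and Pdk4 0 UMIs and 1 UMI.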
